A study of Homo sapiens with 12 samples.

Results

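The genes described here are 10 transcriptional targets of p53 that act in cell death or in the redox and metabolic balance of the cell: BAX, BBC3, FAS, TNFRSF10B, AEN, ZMAT3, TP53I3, FDXR, TIGAR and SERPINB5. They were taken by symbol from a fixed list of 10, and all 10 were found among the 13001 genes of the deposited tables. TIGAR is listed there under its older symbol C12orf5. All 10 passed the filter on low counts, which removed no gene.

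RNA-seq of poly(A) RNA was carried out on LNCaP, an androgen-sensitive line from a lymph node metastasis of prostate cancer (clone FGC, passage 8). The cells were grown in RPMI 1640 with 10% serum and transfected with Lipofectamine 2000, with fresh medium given after 6 hours. The 12 libraries form 4 groups of 3: an empty vector (EV), a plasmid coding for LSD1, a plasmid coding for LSD1+8a, and a plasmid coding for SRRM4. All 4 groups therefore share the line and the transfection reagent, and each received its own plasmid. Untransfected cells were not analysed here. LSD1 is the histone demethylase encoded by KDM1A. LSD1+8a is its isoform with the neuronal microexon 8a, and SRRM4 is a neuronal splicing factor that favours such microexons. The series concerns SRRM4 and LSD1+8a in prostate cancer with neuroendocrine features. The labels do not say that libraries of 1 group are separate cultures. The p-values then cover only the spread seen among them, which can be technical.

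p53 is a transcription factor that is held low by the ubiquitin ligase MDM2 and accumulates after DNA damage and other stress. It then binds response elements made of paired half-sites and raises genes that stop the cell cycle, repair DNA, alter metabolism or start apoptosis. Cell death can run through the mitochondrion, where BAX opens the outer membrane and BBC3 (PUMA) disables its inhibitors, or through the surface receptors FAS and TNFRSF10B (DR5).

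The p53 half-site was searched for in RefSeq promoter windows (GRCh38.p14), each 300 bases long, from 250 bases before to 50 bases after an annotated start. The half-site is a 10-base consensus that reads the same on both strands, so that 1 search covers both. Of the 10 genes 9 had a window, 13 windows in all, and 3 genes held an exact half-site in 1 window each. These 3 are shown because they place the consensus in the members themselves, with the half-site in capitals and 10 bases on either side, 5′ to 3′ on the strand of the gene.
FDXR: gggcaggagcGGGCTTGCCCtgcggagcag
AEN: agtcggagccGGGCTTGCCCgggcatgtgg
FAS: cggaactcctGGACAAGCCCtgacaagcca
The FDXR stretch lies at chr17:74872986-74873015 on the minus strand, and its half-site spans bases 11 to 2 before the start. The AEN stretch lies at chr15:88621296-88621325 on the plus strand, with the half-site 34 to 25 bases before the start, and carries the same 10 bases as FDXR. The FAS stretch lies at chr10:88991299-88991328 on the plus strand, with the half-site 122 to 113 bases before one of 3 annotated starts. In the GENCODE v29 annotation of GRCh38 no coding exon covered any of the 3 half-sites, while exons of 5 of 20 FDXR, 1 of 6 AEN and 2 of 20 FAS transcripts did. An exact half-site was present in 6.63% of all 35116 windows. Among 9041 measured genes with a window under the same symbol, 7.4% had one in any of their windows. A match describes these letters only, and the other 6 genes with windows may carry elements outside them.

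Library totals were 12750609 to 13570740 counts for EV, 11658730 to 12565335 for LSD1, 12110101 to 13359671 for LSD1+8a and 10876293 to 11485489 for SRRM4. The SRRM4 libraries were thus the shallowest. In counts thinned to equal totals all 10 genes were still called higher than in EV, as were 537 of all 13001 genes. KDM1A checked that LSD1 was raised under both LSD1 labels, though a value per gene cannot tell the isoforms apart. It lay at 93.7 to 95.2 CPM (counts scaled to a common library total with TMM factors) in EV and 92.0 to 100.1 in SRRM4. With the LSD1 plasmid it was 515 to 587 CPM, and with LSD1+8a 1983 to 2608. The symbol SRRM4 was not analysed here, so no value checks the SRRM4 labels in this way. All 9 luminal prostate markers were measured, with summed TPM (deposited levels scaled to transcript length and library total) of 6223 to 6329 in EV and 5692 to 5727 in SRRM4, 5 of them differing at adjusted p under 0.05. Their part in the results below was not tested. Of 9 basal epithelial markers only KRT14, ITGB4 and LAMB3 were measured, each at a group mean of at most 3.13 TPM, and none was called between SRRM4 and EV in edgeR. Of 7 fibroblast markers 2 were measured and none was called. Of 7 leukocyte and endothelial markers 2 were measured, and 1 of them, VWF, was lower with SRRM4 (log2 fold change -0.29, adjusted p = 0.0131).

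With SRRM4 all 10 genes rose over the empty vector, and with LSD1 or LSD1+8a none was called. A gene was called where edgeR's quasi-likelihood test, with Benjamini-Hochberg adjustment across the 13001 genes, gave an adjusted p under 0.05. With SRRM4 10 of 10 were higher, where 4.47% of all genes were called higher, 3.22% lower and 7.68% in either direction. The median log2 fold change of the 10 was 0.56 (range 0.17 to 2.04), against a median of -0.0011 over all genes. In CPM every SRRM4 library lay above all 9 other libraries for all 10 genes, as it did for 5.80% of all genes. CPM of all 3 SRRM4 libraries above all 3 EV libraries was found for 13.0% of all genes. In bulk RNA a change in each cell and a change in a share of the transfected cells cannot be told apart.

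**Figure D1:**
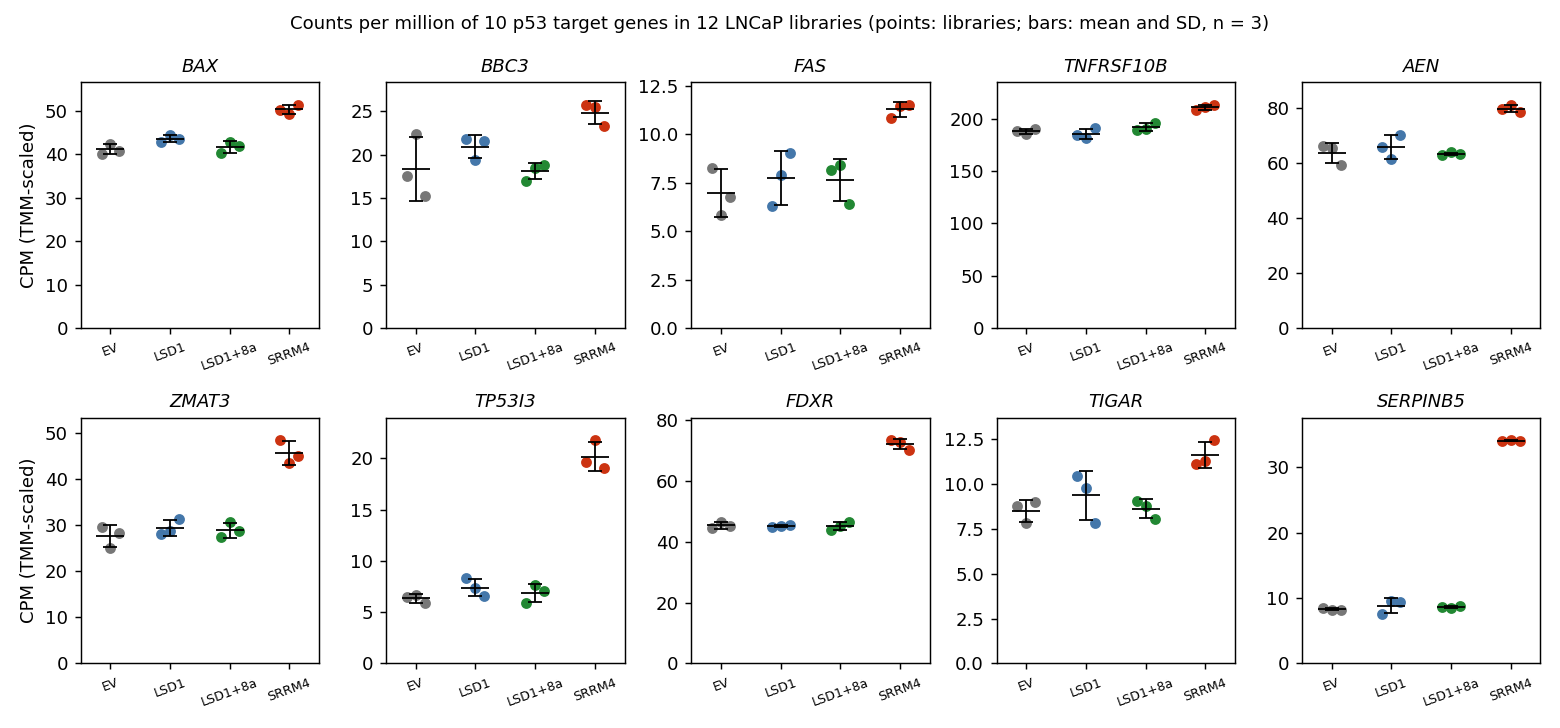
CPM of the 10 genes (y axis, from 0) in the 4 groups (x axis), with each library as a point and the mean and SD (n = 3) as bars. For all 10 genes the 3 SRRM4 points lie above the other 9, by the widest margin for SERPINB5 (34.1 or more against at most 9.62 CPM).

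Both mitochondrial death genes were modestly higher with SRRM4. BAX, the pore-forming BCL2 family member, stood at 40.2, 42.5 and 40.9 CPM in EV replicates 1 to 3 and at 50.3, 49.4 and 51.5 CPM with SRRM4. The LSD1 libraries gave 42.9, 44.4 and 43.6 CPM for BAX and the LSD1+8a libraries 40.3, 42.9 and 41.9 CPM. In CPM the SRRM4 values did not overlap any other group, and LSD1 was slightly above EV in every library without being called. BAX was 1.22-fold higher with SRRM4 than with EV (log2 fold change 0.29, SE 0.05, adjusted p = 0.000243). On deposited TPM BAX ran from 80.9 to 85.1 in EV and from 93.9 to 112 in SRRM4. The SRRM4 range there overlapped those of LSD1 (73.7 to 99.0) and LSD1+8a (72.8 to 94.9). On TPM limma did not call BAX for SRRM4 against EV (adjusted p = 0.276 at a pseudocount of 0.1).

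BBC3 encodes PUMA, a BH3-only protein that frees BAX by binding the survival members of its family. Its EV libraries spread widely, at 17.5, 22.4 and 15.2 CPM, and the SRRM4 libraries lay at 25.8, 25.5 and 23.3 CPM. LSD1 gave 21.9, 19.4 and 21.5 CPM and LSD1+8a 17.0, 18.5 and 18.8 CPM. The lowest SRRM4 library was only 1.04-fold above the highest of the other 9, the narrowest margin of the 10 genes. BBC3 rose 1.35-fold over EV (log2 fold change 0.43, SE 0.10, adjusted p = 0.00443 in edgeR), a call that ended with limma on deposited TPM (adjusted p = 0.0841).

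Among the other genes of this branch, measured for 26 of 27 listed, none was called higher with SRRM4 and 1 (3.85%) was lower, where 4.47% of all genes were higher and 3.22% lower. In edgeR 6 were under an unadjusted p of 0.05 in either direction, a count given here without the share of all genes. The lower gene was BCL2L11, which encodes the BH3-only protein BIM, at 46.0 ± 1.30 CPM in EV and 40.1 ± 0.828 with SRRM4 (SD, n = 3; log2 fold change -0.20, adjusted p = 0.0163). The survival factor MCL1 (0.10, adjusted p = 0.059) and the BH3-only p53 target PMAIP1 (0.33, adjusted p = 0.0734) did not pass. The list median was 0.02.

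The death receptors differed in level and in the size of their change. FAS, the receptor for FAS ligand, was a low transcript with 78 to 126 counts a library. It lay at 8.29, 5.81 and 6.77 CPM in EV and at 10.8, 11.5 and 11.5 CPM with SRRM4. The LSD1 libraries held 6.30, 7.92 and 9.03 CPM of FAS and the LSD1+8a libraries 8.16, 8.41 and 6.40 CPM. The 3 groups other than SRRM4 overlapped one another throughout. FAS was 1.62-fold higher with SRRM4 (log2 fold change 0.70, SE 0.14, adjusted p = 0.000703).

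TNFRSF10B, the TRAIL receptor DR5, had the highest CPM of the 10. EV gave 189, 185 and 190.1 CPM, LSD1 184, 182 and 191 CPM, and LSD1+8a 189.5, 189.9 and 196 CPM. SRRM4 libraries held 209, 211 and 214 CPM, above every other library although the change was the smallest of the 10. The rise was 1.12-fold (log2 fold change 0.17, SE 0.03, adjusted p = 0.000681).

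Of 20 other death receptor pathway genes measured (21 listed), 4 (20%, against 4.47% of all genes) were higher with SRRM4 and none was lower in edgeR. The decoy receptor TNFRSF10D rose by 0.26 (adjusted p = 0.000183), the TRAIL receptor TNFRSF10A by 0.32 (adjusted p = 0.00269) and the death domain receptor TNFRSF21 by 0.24 (adjusted p = 0.0398) on the log2 scale. BIRC3, an inhibitor of apoptosis that is also a target of NF-kB, rose from 7.56 ± 1.37 to 15.7 ± 2.69 CPM (1.05, adjusted p = 5.41e-07). The list median was 0.02. The TNFRSF10 receptors are paralogs, and how shared reads were counted is not given in the sources used here.

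AEN and ZMAT3 act on nucleic acids. AEN, an apoptosis-enhancing nuclease, was at 66.1, 65.4 and 59.3 CPM in EV and at 79.4, 81.2 and 78.6 CPM with SRRM4. Its LSD1 libraries lay at 65.9, 61.4 and 70.1 CPM and its LSD1+8a libraries at 63.0, 63.8 and 63.1 CPM. The SRRM4 libraries were close together and clear of the rest, and the rise was 1.25-fold (log2 fold change 0.33, SE 0.05, adjusted p = 1.58e-05).

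ZMAT3 (Wig-1) is a zinc finger protein that binds RNA. EV libraries held 29.7, 25.0 and 28.5 CPM, LSD1 28.2, 28.9 and 31.4 CPM, LSD1+8a 27.4, 30.7 and 28.9 CPM, and SRRM4 48.6, 43.6 and 45.1 CPM. ZMAT3 was 1.65-fold higher with SRRM4 (log2 fold change 0.73, SE 0.07, adjusted p = 7.97e-10). Only the SRRM4 group was set apart in CPM.

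The redox genes included the second largest rise. TP53I3 (PIG3) is an NADPH-dependent quinone oxidoreductase that produces reactive oxygen species. It lay at 6.47, 6.71 and 5.86 CPM in EV, at 8.29, 7.32 and 6.58 CPM in LSD1 and at 5.92, 7.69 and 7.05 CPM in LSD1+8a. With SRRM4 it reached 19.7, 21.8 and 19.0 CPM, at least 2.30-fold above the highest of the other 9 libraries. The rise over EV was 3.17-fold (log2 fold change 1.67, SE 0.11, adjusted p = 2e-13).

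FDXR, the mitochondrial ferredoxin reductase that passes electrons from NADPH to ferredoxins, was the steadiest of the redox genes. EV gave 44.5, 46.7 and 45.1 CPM, LSD1 45.0, 45.1 and 45.5 CPM, and LSD1+8a 43.8, 45.0 and 46.7 CPM. SRRM4 gave 73.5, 72.9 and 70.1 CPM, well above those 9 libraries. FDXR was 1.59-fold higher than with EV (log2 fold change 0.67, SE 0.05, adjusted p = 1.09e-12). Its electron acceptors did not pass the test: FDX1 was at 0.19 (adjusted p = 0.0952) and FDX2, listed as FDX1L, at 0.22 (adjusted p = 0.0667) on the log2 scale. Both were named after their values were seen.

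TIGAR is a sugar phosphatase that lowers glycolytic flux and favours the pentose phosphate pathway. Its EV libraries were at 8.76, 7.83 and 8.98 CPM and its SRRM4 libraries at 11.1, 11.3 and 12.5 CPM. LSD1 gave 10.4, 9.79 and 7.85 CPM and LSD1+8a 9.06, 8.80 and 8.04 CPM. TIGAR rose 1.36-fold over EV (log2 fold change 0.45, SE 0.12, adjusted p = 0.0122 in edgeR), the weakest call of the 10. The call ended in DESeq2 (adjusted p = 0.0839), without EV replicate 2 (adjusted p = 0.0653 in edgeR) and without SRRM4 replicate 3 (adjusted p = 0.0744 in edgeR).

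Of 34 other redox genes measured (35 listed), 5 (14.7%) were higher and 1 (2.94%) was lower with SRRM4, where 4.47% of all genes were higher and 3.22% lower, with a median of 0.03. Transketolase of the pentose phosphate pathway (TKT, 0.20, adjusted p = 2.58e-05) rose, as did the NRF2 targets SRXN1 (0.13, adjusted p = 0.0175) and NQO1 (0.20, adjusted p = 0.0242). Thioredoxin reductase TXNRD1 (0.11) was also among the higher genes, and the lower gene was catalase, CAT (-0.13). TXNRD1 and CAT were named after their values were seen.

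SERPINB5 encodes maspin, a serpin without protease inhibition that is known as a tumour suppressor of breast and prostate and marks basal epithelium. EV libraries lay at 8.45, 8.20 and 8.22 CPM, LSD1 at 7.50, 9.62 and 9.37 CPM, and LSD1+8a at 8.69, 8.49 and 8.77 CPM. SRRM4 libraries lay at 34.1, 34.2 and 34.1 CPM, so that the lowest of them was 3.54-fold above the highest of the other 9. The rise was 4.11-fold (log2 fold change 2.04, SE 0.09, adjusted p = 4.52e-19), the largest of the 10 and rank 11 by fold among all 13001 genes. The basal markers measured beside it did not pass: KRT14 at 0.27 (adjusted p = 0.520), ITGB4 at 0.11 (adjusted p = 0.758) and LAMB3 at 0.12 (adjusted p = 0.763). The 95% interval of SERPINB5 (1.86 to 2.22) and that of TP53I3 (1.44 to 1.90) lay above those of the other 8 genes, of which the highest bound was 0.98 for FAS.

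**Figure D2:**
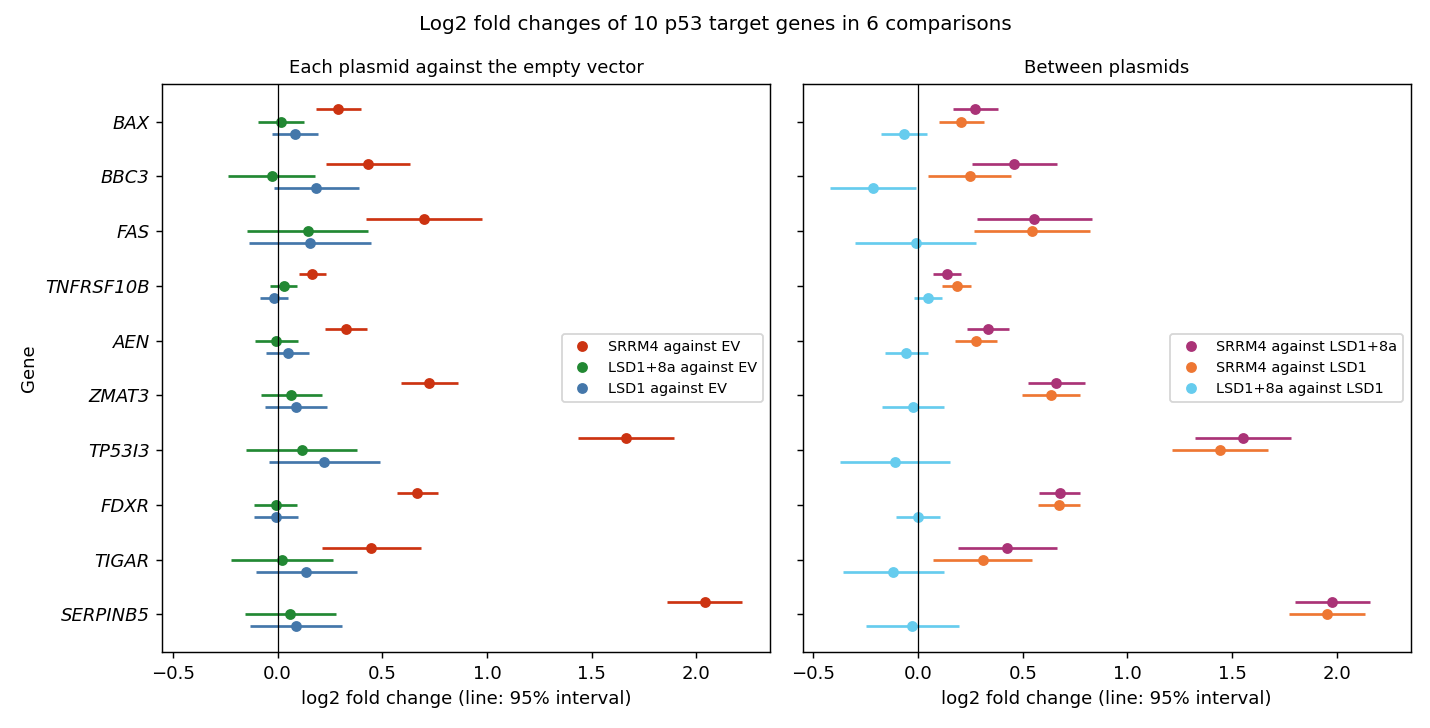
Log2 fold change (x axis) of each gene (y axis) with its 95% interval as a line, for each plasmid against the empty vector at left and between plasmids at right. All 10 SRRM4 intervals at left lie above 0, while the LSD1 and LSD1+8a intervals all include 0.

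With LSD1+8a no gene of the 10 was called. edgeR called 0 of 10, where 0.346% of all genes were called in either direction, and DESeq2 and limma-voom also called 0. None was under an unadjusted p of 0.05. In CPM all 3 LSD1+8a libraries lay above all 3 EV libraries for 1 gene, SERPINB5, and for 6.12% of all genes. The median log2 fold change was 0.03 (range -0.03 to 0.14, SE 0.03 to 0.14). The 95% intervals bounded a rise at 0.38 for TP53I3, 0.28 for SERPINB5, 0.43 for FAS and 0.10 for TNFRSF10B. FDXR (-0.0097, interval -0.11 to 0.09) and AEN (-0.0066, interval -0.11 to 0.10) were among the most tightly bounded.

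With LSD1 lacking the microexon, 0 of the 10 were called in edgeR, where 0.0462% of all genes were called higher and 0.0538% lower. DESeq2 and limma-voom also called 0, and none was under an unadjusted p of 0.05. BAX was the 1 gene with all LSD1 libraries above all EV libraries in CPM, as were 5.48% of all genes. The median was 0.09 (range -0.02 to 0.22). The largest values were TP53I3 at 0.22 (interval -0.04 to 0.49, adjusted p = 0.877) and BBC3 at 0.19 (interval -0.02 to 0.39, adjusted p = 0.867). A p above the threshold does not show that these genes were unchanged. The 3 comparisons with EV share its libraries.

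The plasmids were also compared directly, which tests whether the SRRM4 response differed from that of the LSD1 forms. Against LSD1+8a, 10 of 10 genes were higher with SRRM4, where 4.42% of all genes were called higher, with a median of 0.51 (range 0.14 to 1.98). The differences were 1.98 for SERPINB5 (SE 0.09, adjusted p = 1.37e-18), 1.55 for TP53I3 (SE 0.11, adjusted p = 1.29e-12) and 0.68 for FDXR (SE 0.05, adjusted p = 1.28e-12). The weakest was TIGAR at 0.43 (adjusted p = 0.0187), which did not pass without LSD1+8a replicate 3 (0.0897) or SRRM4 replicate 3 (0.0956), in counts thinned to equal totals (0.0602) or in DESeq2 (0.116). FAS (0.56, adjusted p = 0.00779) did not pass without LSD1+8a replicate 3 (0.0691). With limma on deposited TPM (pseudocount 1) 4 of the 10 passed, where 134 of all 13001 genes were called higher, against 574 in edgeR. FAS, BAX, BBC3, TNFRSF10B (adjusted p = 0.0738), ZMAT3 (adjusted p = 0.124) and TIGAR did not pass in that limma test.

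Against LSD1, 8 of 10 genes were higher with SRRM4, where 4.38% of all genes were called higher, with a median of 0.43 (range 0.18 to 1.95). The 2 that did not pass were BBC3 (0.25, interval 0.05 to 0.45, adjusted p = 0.131, or 0.0475 with only these groups fitted) and TIGAR (0.31, interval 0.07 to 0.54, adjusted p = 0.107). FAS (0.54, adjusted p = 0.0104) lost its call without LSD1 replicate 1 (0.0885) and in DESeq2 (0.0534). BAX (0.21, adjusted p = 0.0117) lost its call without SRRM4 replicate 3 (0.0588) and in DESeq2 (0.0902). In DESeq2 6 of the 10 passed, and with limma on deposited TPM 4. Of all 13001 genes DESeq2 called 325 higher and limma on TPM (pseudocount 1) 128, where edgeR called 569. With limma on TPM the calls of FAS, BAX, AEN and ZMAT3 ended. These 3 SRRM4 comparisons share the SRRM4 libraries and are not independent of each other.

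Between LSD1+8a and LSD1 edgeR called 0 of 10, where it called 0.323% of all genes, and DESeq2 and limma-voom called 0 as well. The median was -0.04 (range -0.21 to 0.05). BBC3 was under an unadjusted p of 0.05: its 3 LSD1+8a libraries lay below its 3 LSD1 libraries (log2 fold change -0.21, interval -0.42 to -0.0079, adjusted p = 0.781). CPM all below was found for 2 of the 10, BAX and BBC3, and for 5.51% of all genes. KDM1A also differed between these groups, at 1983 to 2608 CPM in LSD1+8a and 515 to 587 in LSD1. The microexon and the level of the transcript therefore cannot be told apart here.

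Levels of the 10 genes were compared with each other in deposited TPM. In EV the order of means ran from TNFRSF10B at 86.6 ± 0.710 and BAX at 83.6 ± 2.31 TPM through FDXR at 34.6 ± 1.01, AEN at 28.4 ± 2.05 and BBC3 at 16.3 ± 2.89 TPM. Below these came TP53I3 at 9.52 ± 1.01, TIGAR at 9.05 ± 0.711, ZMAT3 at 7.16 ± 1.29, FAS at 6.62 ± 1.12 and SERPINB5 at 4.62 ± 1.03 TPM (SD, n = 3). TP53I3 and TIGAR overlapped, and so did ZMAT3 and FAS, while the 2 most abundant genes were only narrowly apart. With SRRM4, TP53I3 reached 28.7 ± 2.17 and SERPINB5 17.7 ± 0.689 TPM. They thereby passed BBC3 (21.4 ± 1.37 TPM) and FAS (10.7 ± 1.70 TPM) respectively in the order, and SERPINB5 also passed ZMAT3 and TIGAR.

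**Figure D3:**
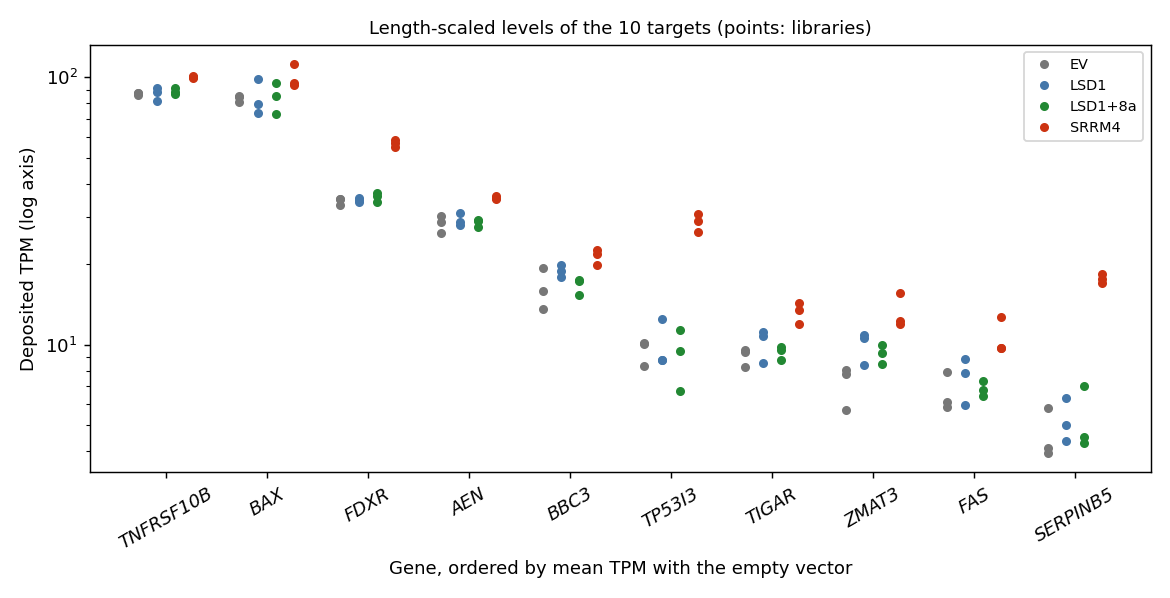
Deposited TPM (y axis, log scale) of the 10 genes (x axis, ordered by the EV mean), with each library as a point coloured by group. TNFRSF10B and BAX, at similar levels, stand highest in every group, and the SRRM4 points of TP53I3 and SERPINB5 stand far above their other points.

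The wider p53 network was described with lists of genes by role. Of 22 p53 network regulators measured, 2 (9.09%, against 4.47% of all genes) were higher with SRRM4 and none was lower in edgeR, with a median of 0.0096. Both higher genes are feedback inhibitors that p53 itself induces. MDM2, the ubiquitin ligase, rose from 123 ± 3.38 to 179 ± 8.09 CPM (0.54, SE 0.04, adjusted p = 2.51e-12), and PPM1D, the phosphatase WIP1, rose from 16.7 ± 0.489 to 25.6 ± 1.85 CPM (0.62, adjusted p = 3.61e-06). The acetyltransferase KAT5 (-0.21, adjusted p = 0.0533) and the DNA-dependent kinase PRKDC (-0.09, adjusted p = 0.0602) did not pass.

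Of 76 other p53 targets measured (78 listed), 27 rose and 1 fell with SRRM4, and 48 were not called. The share called higher was 35.5%, against 4.47% of all genes, and the median was 0.15. Counted in the 27 were MDM2 and PPM1D, also listed as regulators, and TNFRSF10A and TNFRSF10D, also listed with the death receptors. These lists are therefore not independent. The smallest p-values belonged to CDKN1A, the cell cycle inhibitor p21 (0.998 on the log2 scale, adjusted p = 4.89e-23), CDIP1, a pro-apoptotic membrane protein (0.56, adjusted p = 8.65e-13), the antiproliferative BTG2 (0.56, adjusted p = 1.4e-12) and MDM2. The lower target was SESN1 (-0.15, adjusted p = 0.0162), named after its value was seen. With LSD1+8a 1 of 76 was higher, TRIM22 (1.21, adjusted p = 0.00453 in edgeR), an interferon-induced gene named after its value was seen. TRIM22 was also among the 27 with SRRM4 (1.83), and the LSD1+8a call ended without LSD1+8a replicate 3 (adjusted p = 0.115 in edgeR), without EV replicate 3 (adjusted p = 0.0747 in edgeR) and with limma on TPM. Without EV replicate 3 another target, the stress cytokine GDF15, was called lower with LSD1+8a (-0.30, adjusted p = 1.38e-06 in edgeR), also named after its value was seen. With LSD1 edgeR called 0 of the 76.

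**Figure D4:**
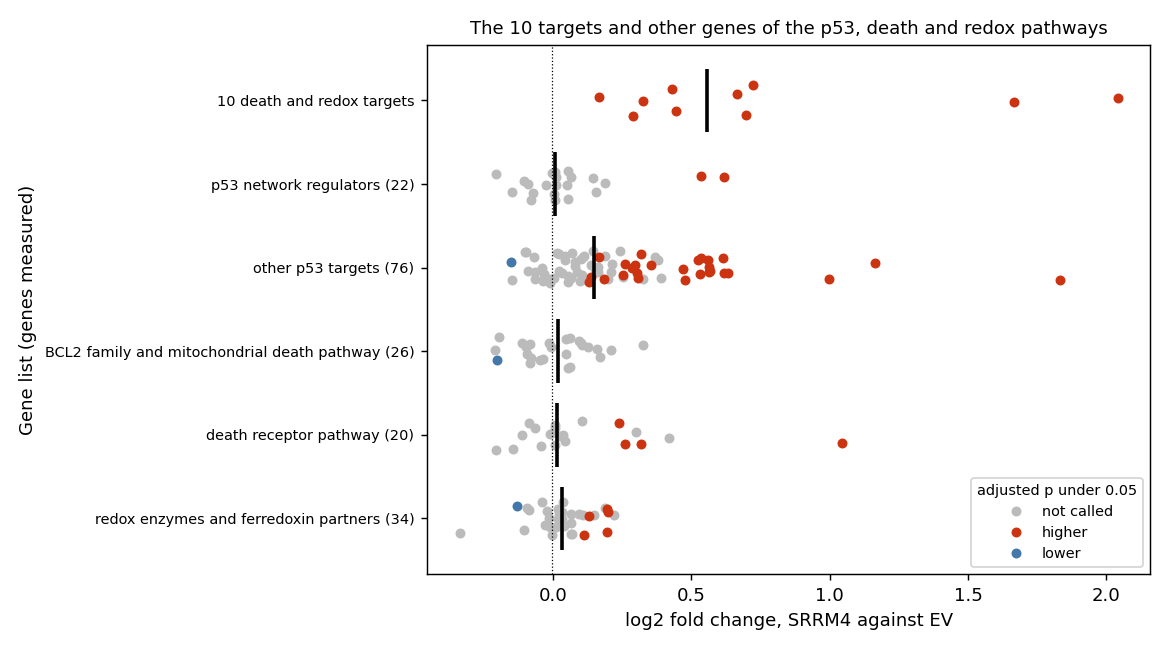
Log2 fold change of SRRM4 against EV (x axis) for the 10 genes and 5 lists of related genes (y axis, genes measured in brackets), coloured by call, with the list median as a bar and the median of all genes as a dotted line. The 10 genes are all called higher, 27 of 76 other p53 targets are, some genes stand in more than 1 list, and the medians of the regulator, mitochondrial, death receptor and redox lists lie at 0.0096 to 0.03.

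The genes whose log2 CPM most resembled TP53I3 over the 12 libraries, among 12986 others, were PIDD1, listed as PIDD, the p53-induced death domain protein (Pearson r = 0.986), CDKN1A (0.980) and the stress sensor SESN2 (0.978). For SERPINB5 they were CDKN1A (0.995), the neuronal stathmin STMN3 (0.992) and the atypical cadherin CELSR3 (0.992). All 12 points share their libraries and fall into the 3 SRRM4 libraries and the 9 others, so these values describe the gap between them. Spearman's rho was 0.629 to 0.881 for the 3 genes nearest TP53I3 and 0.490 to 0.734 for those nearest SERPINB5.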

How the data were processed

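Per the file headers, the authors deposited a table of counts per gene (whole numbers), a table of TPM, and a table of log2 fold changes with p-values for each transfection against the empty vector, which repeats the TPM. Named in the submitters' processing notes, without roles, are the tools STAR 2.5.3a and RSEM 1.2.31 and the build hg19. In the authors' deposited table of comparisons, 9 of the 10 genes were higher with SRRM4 at an adjusted p under 0.05, the exception being TIGAR (0.0839), none with LSD1+8a, and with LSD1 the adjusted p was blank for all 10.

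The deposited counts were normalized with TMM and fitted in edgeR 4.0.16 (R 4.3.3) in 1 robust quasi-likelihood model of the 4 groups, with 6 contrasts. CPM use TMM-scaled totals. SE were derived from the log2 fold change and the F statistic. The lists, markers and members were chosen with earlier results of these data known, and support nothing on their own. Named genes were the 10 members, KDM1A, MDM2, up to 4 genes with the smallest p of each list in SRRM4 against EV, and the 3 genes most correlated with TP53I3 and SERPINB5 (average log2 CPM of at least 0, prior count 2). A few genes that this rule names are not reported here. Older symbols were matched through RefSeq and gene name tables. All 12 pairs of libraries within a group differed by more than counting noise (chi-square over its degrees of freedom 1.44 to 2.88), so no library was treated as a duplicate deposit. This does not show separate cultures. The test was checked on simulated data. Alternatives used RLE and upper-quartile factors, other filters, DESeq2 1.42.0, limma 3.58.1 (voom, and trend on log2 of TPM plus 1 or 0.1), a replicate block, 2-group fits, thinning to 10876293 counts, removal of mitochondrial genes, and leaving out each library. Genome positions of the files were not used.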

Additional observations from a re-analysis of the deposited data

How the results depend on the processing

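Every alternative kept the direction of every call on the 10 genes. With SRRM4 against EV, 8 to 10 of the 10 were called over 19 alternatives, and with LSD1 or LSD1+8a against EV or each other 0 in all 19. TP53I3, FDXR and SERPINB5 kept their calls in all 3 SRRM4 comparisons under all alternatives. limma on TPM (pseudocount 1, 0.1, or 1 with a filter), which changes unit and test together, called 4 of 10 in SRRM4 against LSD1+8a and 4 in SRRM4 against LSD1. At a pseudocount of 1 it called 134 and 128 of all 13001 genes higher there, where edgeR called 574 and 569. Of 171 other pathway genes it called 24 against EV (37 in edgeR on counts), 18 against LSD1+8a (36), and 15, 15 and 16 against LSD1 (46). For LSD1+8a against EV it called 0 (1 in edgeR, TRIM22). Leaving out a library gave 0 to 1 there. TRIM22 was called higher in these fits except without EV replicate 3 and without LSD1+8a replicate 3. Without EV replicate 3 GDF15 was called lower, and without LSD1+8a replicate 3 none of the pathway genes was called. For LSD1+8a against LSD1 limma on TPM called 0 (1 in edgeR, PFKFB4), DESeq2 2, a 2-group fit 2, and leaving out a library gave 0 to 2. Over all genes, SRRM4 against EV had 581 higher and 418 lower in edgeR, 497 and 561 with upper-quartile factors, 328 and 235 in DESeq2, 254 and 73 with limma on TPM (pseudocount 1), and 661 in total without SRRM4 replicate 2. The other all-gene totals ranged over the alternatives from 23 to 66 (main 45) for LSD1+8a against EV, 5 to 20 (13) for LSD1 against EV, 19 to 49 (42) for LSD1+8a against LSD1, 203 to 1013 (986) for SRRM4 against LSD1+8a and 178 to 1022 (916) for SRRM4 against LSD1. The cause of these differences was not tested. A replicate block left 10, 10 and 8 of the 10 genes called in the SRRM4 comparisons with EV, LSD1+8a and LSD1, and 0 in the other 3. In those SRRM4 comparisons the block fit called 518, 510 and 512 of all 13001 genes higher. Whether same-numbered libraries share more than a number, such as a culture or day, is not given in the labels. Correlations of their deviations ran from -0.0611 to 0.0736 for SRRM4 and EV. In the 6 comparisons no set of 3 pairs was above 0.1 throughout. Every library of LSD1+8a correlated best with its own number in EV, 1 of 3 SRRM4 libraries did, and the block moved no count of the 10 genes. The fewest counts a library were held by FAS (78 to 126), TIGAR (93 to 136) and TP53I3 (77 to 237), which limits their precision.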

Other observations

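Deposited TPM and CPM of the same gene did not move in step for every gene, which bears on values given per length. The TPM obtained per CPM varied 1.71-fold between libraries for ZMAT3 and 1.67-fold for SERPINB5, but 1.08-fold for AEN and 1.07-fold for FDXR. For ZMAT3 it was 0.257 ± 0.0278 in EV, 0.339 ± 0.0478 in LSD1, 0.319 ± 0.0236 in LSD1+8a and 0.289 ± 0.0289 in SRRM4 (SD, n = 3). The ZMAT3 TPM of all LSD1 and LSD1+8a libraries (8.42 or more) lay above those of EV (at most 8.01). This gap is given without the share of all genes that show one. ZMAT3 was not called with LSD1 or LSD1+8a against EV, on counts or with limma on TPM. On TPM, ZMAT3 was 1.39-fold above EV with LSD1, 1.29-fold with LSD1+8a and 1.85-fold with SRRM4, against 1.06, 1.05 and 1.65-fold in CPM. Which transcripts of ZMAT3 were counted was not analysed here.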
